A study of Homo sapiens with 4 samples.

Results

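The mitochondrial respiratory chain was described gene by gene in A375 cells given ozonated olive oil. Members were the nuclear genes named as subunits of complexes I to V (symbols beginning NDUFA, NDUFB, NDUFC, NDUFS, NDUFV, SDH, UQCR, COX4 to COX8 or ATP5) and the 13 protein-coding genes of the mitochondrial genome, with a summed count of at least 40 over all libraries. Of 28395 rows in the table, 102 matched the names and 93 reached the minimum: 13 mitochondrial coding genes and 80 nuclear genes. A375 cells given 0.01% ozonated olive oil for 6 h were set against A375 cells given 0.01% plain olive oil for 6 h. Each oil had 2 libraries, numbered 1 and 2 in the titles. A375 is an established human melanoma line labelled wild type, and the samples analysed here hold no untreated cells. Separate cultures are not stated for the numbered libraries, so a p-value here reflects only how these libraries vary, and that variation may be technical.

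The respiratory chain passes electrons from NADH (complex I) and succinate (complex II) through complex III to oxygen at complex IV, and complex V uses the resulting proton gradient to make ATP. Complex II is built from nuclear genes alone, whereas the other complexes combine nuclear subunits, imported from the cytosol, with a few subunits made inside the mitochondrion. The mitochondrial genes are transcribed as long precursors by a dedicated polymerase and cut at the tRNAs that lie between most of them. Their messages are thus made apart from those of their nuclear partners.

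Library totals were 23571726 and 22245807 counts with ozonated oil, against 27772480 and 26609495 with olive oil. The libraries stood apart by number before they stood apart by oil: on the first principal component (66.4% of the variance) number 2 lay opposite number 1, and on the second (21.3%) ozonated oil lay opposite olive oil. Log2 differences over all genes had an SD of 0.69 between both ozonated libraries and 0.66 between both olive oil libraries, against 0.41 within number 1 and 0.47 within number 2. What the number stands for is not in the labels, so each difference between the oils is also given within each number, where 1 library meets 1 library and no test exists. The melanocyte lineage factor SOX10 and the melanoma proteoglycan CSPG4 were detected at 278 CPM (counts scaled to library size with TMM factors) or more and 275 CPM or more in every library. The pigment genes PMEL and MLANA had at most 0.992 and 1.35 CPM and TYR was at 0. DCT and TYRP1 had at most 0.786 and 0.816 CPM. MITF lay between 24.2 and 36.1 CPM, S100B between 3.3 and 9.0 CPM and S100A1 between 4.8 and 13.4 CPM. In all, 9 of the 10 melanoma lineage markers could be tested, PMEL, DCT and TYRP1 among them despite their low levels. Summed keratinocyte markers, mostly KRT10, lay between 87.7 and 98.7 CPM, with TP63 at 0. Summed fibroblast markers lay between 13.2 and 15.5 CPM and endothelial markers between 2.2 and 3.4 CPM. Leukocyte markers, mostly the macrophage and lysosome gene CD68, had summed levels of 86.2 and 45.8 CPM with ozonated oil and 71.3 and 33.3 CPM with olive oil, with CD3E at 0.

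The comparison of the oils asked whether the mRNA of the chain differed after the ozonated oil. The mitochondrial coding genes had a median log2 fold change of 0.22 (ozonated over olive oil, range -0.03 to 0.41), and the 80 nuclear genes had a median of 0.01 (range -0.32 to 0.27), where the median over all genes tested was 0.00. Both ends of the nuclear range were low rows, COX7B2 (-0.32, at most 8.13 CPM) and UQCRBP1, a copy of UQCRB (0.27, at most 2.04 CPM). No member passed the test: the quasi-likelihood test of edgeR, adjusted by Benjamini-Hochberg, called 0 of 14841 genes (0%) and 0 of 93 members, with every member at an adjusted p of 0.9998. The smallest adjusted p over all genes was 0.748, and 570 genes, of which 3 were members, had an unadjusted p under 0.05. DESeq2 called 59 genes and limma-voom 0, and 0 members in each. None of these fits had a term for the number, since the labels do not pair the libraries. A fit with the number as a block did call members, and it is given under the dependence on processing. A level in bulk RNA does not separate fewer cells carrying a message from less message per cell.

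Among the mitochondrial genes, ATP8 and ATP6 had the highest fitted values. They encode the membrane subunits of ATP synthase made in the mitochondrion, and ATP6 forms part of the proton channel. ATP8 (mitochondrial genome, 8366 to 8572, GRCh38) had 496 and 461 CPM with ozonated oil, against 380 and 343 CPM with olive oil. Its log2 fold change was 0.41 ± 0.11 (SE, n = 2 each, unadjusted p = 0.016 by edgeR), with differences of 0.39 within number 1 and 0.43 within number 2. ATP6 (8527 to 9207) had 2702 and 2489 CPM with ozonated oil and 2107 and 1924 CPM with olive oil. Its log2 fold change was 0.36 ± 0.11 (SE, n = 2 each, unadjusted p = 0.022 by edgeR). For each of these genes both ozonated libraries exceeded both olive oil libraries, and the within-number differences were close to each other.

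These genes overlap on the mitochondrial genome, as do ND4L and ND4, and the overlaps are shown because a read inside the capitals belongs to both rows of a pair. How such reads were assigned is not stated in the labels. Because the genes of a pair overlap, no tRNA lies between them either. The members of a pair are therefore not independent measurements. ATP6 also ends on the base where COX3 begins (9207), with no tRNA between them, and that overlap is not printed. Capitals mark the overlap of 46 bases between ATP8 and ATP6 and of 7 bases between ND4L and ND4, each on the plus strand (GENCODE, GRCh38).
ATP8 and ATP6, chrM:8497-8602: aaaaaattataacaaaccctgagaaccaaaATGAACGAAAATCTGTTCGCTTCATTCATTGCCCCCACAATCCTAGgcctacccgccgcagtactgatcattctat
ND4L and ND4, chrM:10730-10796: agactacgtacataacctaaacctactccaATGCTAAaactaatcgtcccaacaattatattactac

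ND4, a core membrane subunit of complex I that helps move protons (10760 to 12137), had 3455 and 3122 CPM with ozonated oil and 2817 and 2380.1 CPM with olive oil. Its log2 fold change was 0.34 ± 0.13 (SE, n = 2 each, unadjusted p = 0.050 by edgeR), with 0.29 within number 1 and 0.39 within number 2. The groups did not overlap. ND4L, the partner it shares bases with, had 475 and 429 CPM with ozonated oil and 446 and 353 CPM with olive oil, and here the groups overlapped (0.18 ± 0.15). ND2, another proton-pumping subunit, had 1870.5 and 2473 CPM with ozonated oil and 1578 and 1884 CPM with olive oil (0.33 ± 0.18). It was higher with ozonated oil within both numbers, and it was the one mitochondrial coding gene called as higher in number 2.

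The remaining complex I genes of the mitochondrion had fitted values near 0 and opposite signs in the numbers. ND1, which lies at the quinone site, had 724 and 672 CPM with ozonated oil and 683 and 711 CPM with olive oil (0.00 ± 0.10). ND3 had 450.1 and 415 CPM with ozonated oil and 442 and 443 CPM with olive oil (-0.03 ± 0.10). The distal pump subunit ND5 had 1276 and 1052 CPM with ozonated oil, against 1205 and 1150.0 CPM with olive oil (-0.02 ± 0.13). Each was above olive oil in number 1 and below it in number 2, and the groups overlapped. ND6, the one coding gene on the other strand, had 366 and 254 CPM with ozonated oil and 305 and 293 CPM with olive oil (0.05 ± 0.19). Its ozonated libraries were the highest and the lowest of all. The library kit marks strand, but the strand setting of the counting is not given, so reads of ND6 and of RNA antisense to it cannot be told apart.

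The catalytic core of complex IV and the cytochrome of complex III were higher with ozonated oil within both numbers. COX1, which holds the oxygen-reducing site, had 4786 and 4089.8 CPM with ozonated oil and 4006 and 3375 CPM with olive oil, with a log2 fold change of 0.27 ± 0.14 and no overlap. COX2, which takes electrons from cytochrome c, had 1602 and 1163 CPM with ozonated oil and 1289.7 and 927 CPM with olive oil. Its differences were 0.31 and 0.33 within the numbers, but the drop between the numbers was larger, so the groups overlapped (0.32 ± 0.23). COX3, a structural core subunit, had 2080.0 and 1967 CPM with ozonated oil and 1941 and 1847 CPM with olive oil. Those groups did not overlap, though the difference was small (0.10 ± 0.10). CYTB, the cytochrome b of complex III, had 1478 and 1224 CPM with ozonated oil and 1253 and 1062 CPM with olive oil (0.22 ± 0.15), with overlap.

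**Figure D1:**
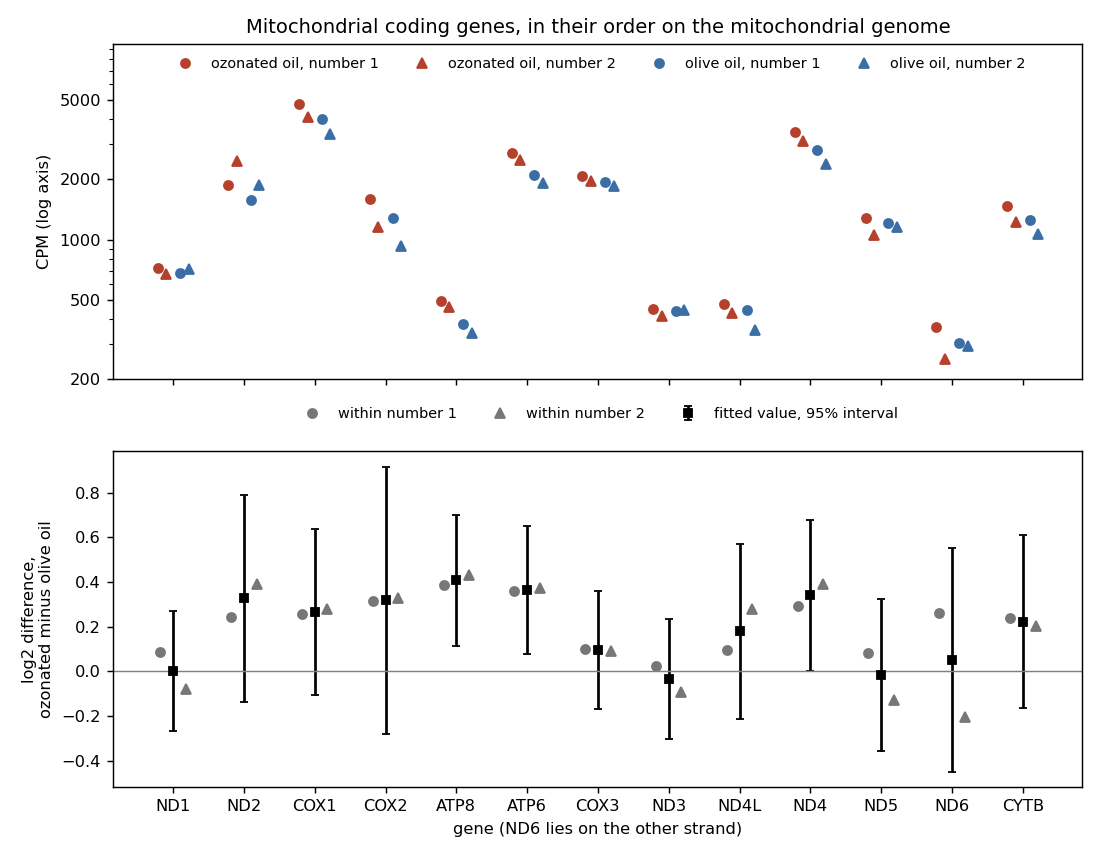
The upper panel plots the CPM of the 13 mitochondrial coding genes in each library on a log axis, and the lower panel the log2 differences (ozonated minus olive oil) within each number beside the fitted value with its 95% interval. The fitted values run from -0.03 for ND3 to 0.41 for ATP8, and the intervals of ATP8, ATP6 and, narrowly, ND4 lie above 0.

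In counts, 9 of the 13 mitochondrial coding genes were higher with ozonated oil within both numbers, where 31.6% of all genes tested were, and the other 4 were higher in number 1 and lower in number 2, where 18.3% were. Both ozonated libraries exceeded both olive oil libraries for 5 of 13, where 15.3% of all genes did so, and were below them for 0 of 13, where 15.7% were. Mitochondrial genes are transcribed as long shared precursors, so these counts do not rest on 13 independent measurements. The median of the 13 was 0.25 within number 1 and 0.28 within number 2. By complex, the median log2 fold change of mitochondrial genes was 0.05 for complex I (7 genes), 0.22 for complex III (1 gene), 0.27 for complex IV (3 genes) and 0.39 for complex V (2 genes). The median over the 13 genes depended on single libraries: it was 0.08 without ozonated number 1, 0.29 without ozonated number 2, 0.35 without olive oil number 1 and 0.10 without olive oil number 2.

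As a share of all counts, the mitochondrial coding genes held 2.17% (95% exact binomial interval 2.16 to 2.18) and 1.93% (1.92 to 1.93) with ozonated oil, against 1.88% (1.87 to 1.88) and 1.69% (1.69 to 1.70) with olive oil. The intervals cover counting error only. The groups did not overlap, with means of 2.05% ± 0.17 and 1.78% ± 0.13 (SD, n = 2 each). The two-sided exact permutation p was 0.333, which is the smallest that 2 libraries against 2 allow. Relative to the summed CPM of the nuclear members, the mitochondrial messages stood at 2.17 and 2.03 with ozonated oil and 1.96 and 1.66 with olive oil.

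The ribosomal RNAs of the same genome, which are not members, lay the other way. RNR1, the small mitochondrial rRNA (648 to 1601), had 327 and 395 CPM with ozonated oil, against 553 and 673 CPM with olive oil. Its log2 fold change was -0.76 ± 0.16 (SE, n = 2 each, unadjusted p = 0.0050 by edgeR, adjusted 0.9998), with -0.76 within number 1 and -0.77 within number 2. RNR2, the large rRNA (1671 to 3229), had 1467 and 1340.0 CPM with ozonated oil, against 1844 and 2304 CPM with olive oil (-0.56 ± 0.15, unadjusted p = 0.012 by edgeR, adjusted 0.9998). Together they held 0.179% and 0.169% of the counts with ozonated oil and 0.244% and 0.302% with olive oil, so both groups were apart for the rRNAs too, in the opposite direction to the messages. Whether rRNA removal or selection of poly(A) RNA differed between the libraries is not in the labels, and its part in either difference was not tested.

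Copies of mitochondrial genes in the nuclear genome can take reads. By blastn against the pseudogene transcripts of GENCODE, copies on chromosome 1 matched ND2, COX1, COX2, ATP8 and ATP6 over their whole length at 97.58% to 98.64% identity. Copies on chromosome 5 matched ND4, ND4L, ND5 and ND6 at 92.99% to 95.78%. For the remaining genes the copy of highest identity covered only part of the length. These were ND1 (99.15% over 352 of 956 bases), COX3 (98.17% over 547 of 784), CYTB (92.44% over 741 of 1141) and ND3 (89.63% over 135 of 346). The part of such copies in the counts was not tested, and these rows are uncertain to that extent.

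**Figure D2:**
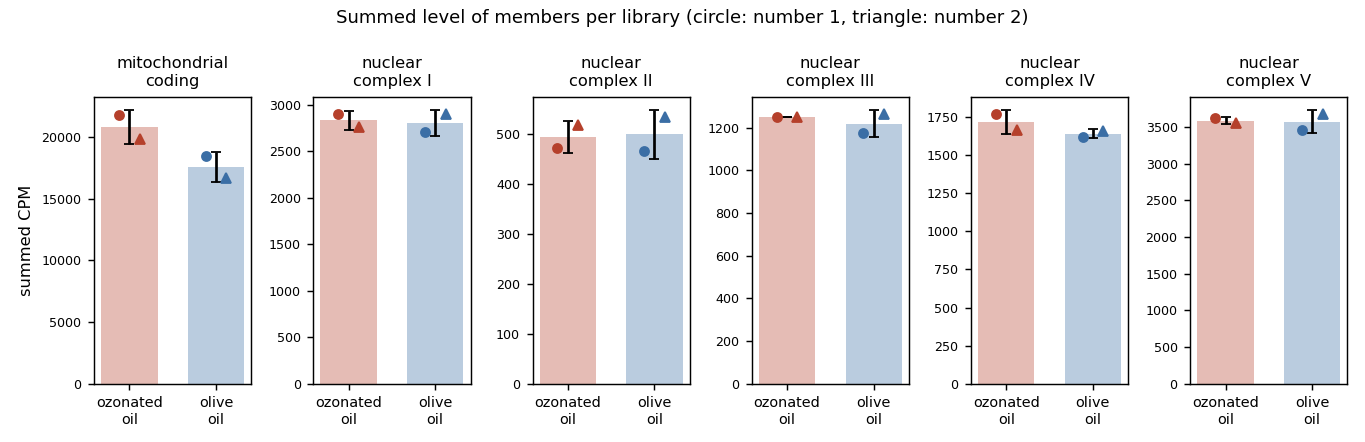
Bars give the mean summed CPM of the members of each group, with SD (n = 2), and points give the libraries. The mitochondrial coding genes sum to 21762 and 19813 CPM with ozonated oil and 18453 and 16691 CPM with olive oil, while the groups overlap for nuclear complexes I, II, III and V.

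The nuclear members lay close to 0 in every complex. Their summed level was 10010.3 and 9745 CPM with ozonated oil and 9419 and 10034.5 CPM with olive oil, so the groups overlapped. The median log2 fold change was 0.01 for complex I (34 genes), -0.02 for complex II (4), -0.00 for complex III (10), 0.05 for complex IV (13) and -0.01 for complex V (19). The 95% interval lay within 1.5-fold of no difference for 74 of 80 genes, against 5445 of the 14841 genes tested. For the other 6 the interval reached past 1.5-fold, and the low rows ATP5F1EP2, UQCRBP1 and COX7B2 were among them. Low counts widen an interval, and the comparison with all genes was not matched for level. The ozonated libraries were both above the olive oil libraries for 15 of the 80 (all genes, 15.3%) and both below for 4 (all genes, 15.7%), and the groups overlapped for 61.

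In complex I, the nuclear core subunits carry the flavin and iron-sulphur clusters. NDUFV1, which binds NADH, had 162 and 173 CPM with ozonated oil and 162 and 182 CPM with olive oil (-0.04 ± 0.12). NDUFS1, the largest core subunit, had 100.02 and 98.8 CPM with ozonated oil and 100.2 and 96.5 CPM with olive oil (0.02 ± 0.10). All 7 core subunits, NDUFV2, NDUFS3, NDUFS7 and NDUFS8 among them, overlapped between the oils, with a median of -0.03.

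The 27 accessory subunits, which stabilise complex I without carrying out catalysis, had a median of 0.01. The smallest unadjusted p values among the nuclear genes of the complex were those of NDUFB4, NDUFB5 and NDUFS5. NDUFB4, in the membrane arm (chromosome 3, 120596336 to 120602507), had 89.7 and 75.3 CPM with ozonated oil and 70.3 and 69.9 CPM with olive oil (0.23 ± 0.13, unadjusted p = 0.13 by edgeR). NDUFB5, of the same arm, had 68.8 and 61.0 CPM with ozonated oil and 61.0 and 57.4 CPM with olive oil (0.13 ± 0.12), and its ozonated library of number 2 all but met the olive oil library of number 1. NDUFS5 had 156 and 152 CPM with ozonated oil and 131 and 150.2 CPM with olive oil (0.13 ± 0.12). NDUFA5 was the fourth complex I gene with both ozonated libraries above, and NDUFC2 the one with both below (22.9 and 20.4 CPM with ozonated oil, 23.0 and 25.9 CPM with olive oil). The other 22 accessory subunits overlapped.

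Complex II oxidises succinate and belongs to the citrate cycle as well. The flavoprotein SDHA had 115 and 132 CPM with ozonated oil and 109.9 and 129 CPM with olive oil (0.05 ± 0.14). The iron-sulphur subunit SDHB had 157 and 162 CPM with ozonated oil and 149.6 and 169 CPM with olive oil (0.00 ± 0.12). SDHC, a membrane anchor, had 124 and 124 CPM with ozonated oil and 124 and 132 CPM with olive oil (-0.04 ± 0.10). SDHD, the other anchor, had 75.6 and 98.4 CPM with ozonated oil and 80.9 and 103 CPM with olive oil (-0.08 ± 0.19), so its libraries grouped by number. All 4 overlapped between the oils.

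In complex III the ozonated libraries were both above for 4 of 10 genes (all genes, 15.3%) and both below for 2 (all genes, 15.7%). The core proteins UQCRC1 and UQCRC2, relatives of the mitochondrial processing peptidase, were among those above. UQCRC1 (chromosome 3, 48599002 to 48609646) had 269 and 237 CPM with ozonated oil and 224 and 226 CPM with olive oil (0.17 ± 0.11, unadjusted p = 0.20 by edgeR). UQCRC2 (chromosome 16, 21953361 to 21983660) had 117 and 134 CPM with ozonated oil and 110.3 and 112 CPM with olive oil (0.18 ± 0.12). UQCRFS1, the Rieske iron-sulphur protein, lay below, with 89.3 and 92.4 CPM with ozonated oil and 96.2 and 106 CPM with olive oil (-0.16 ± 0.11). UQCRH, the hinge protein that contacts cytochrome c1, had 370.1 and 402 CPM with ozonated oil and 359 and 411 CPM with olive oil (0.00 ± 0.12). UQCRB and its copy UQCRBP1 lay above and UQCR10 below, while UQCRQ, UQCR11 and UQCRHL overlapped. UQCRHL resembles UQCRH and UQCRBP1 resembles UQCRB, so reads may have been split or dropped between each pair.

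The nuclear subunits of complex IV surround the catalytic core and include tissue and oxygen-dependent isoforms. COX4I1, the common isoform of subunit 4, had 341 and 317 CPM with ozonated oil and 304 and 319 CPM with olive oil (0.08 ± 0.11). Its hypoxia-linked counterpart COX4I2 was listed at 0 in every library, where 3 counts, the limit that a count of 0 allows, correspond to 0.108 to 0.135 CPM. COX7C, a small membrane subunit (chromosome 5, 86617941 to 86620962), had 250.4 and 240.1 CPM with ozonated oil and 220.4 and 214 CPM with olive oil, with no overlap (0.18 ± 0.10, unadjusted p = 0.14 by edgeR). COX7A2, the common isoform of subunit 7a, had 109.7 and 112 CPM with ozonated oil and 103 and 104 CPM with olive oil (0.10 ± 0.10). The groups did not overlap for COX7A2 either, while those of COX4I1 did. COX7A1, the heart and muscle isoform, was under the minimum, with 1 and 0 counts in the ozonated libraries and 11 and 9 counts in the olive oil libraries.

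COX7B2, a copy of COX7B known mainly from testis, had 6.1 and 5.3 CPM with ozonated oil and 6.1 and 8.1 CPM with olive oil (-0.32 ± 0.27). NDUFA4, named for complex I but a subunit of complex IV, had 126 and 106 CPM with ozonated oil and 115 and 108 CPM with olive oil (0.05 ± 0.13). COX5A and the supercomplex factor COX7A2L were the other complex IV genes with both ozonated libraries above. COX5B, COX6A1, COX6B1, COX6C, COX7B and COX8A overlapped.

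In ATP synthase, ATP5F1B, the catalytic beta subunit, had 1127 and 1123 CPM with ozonated oil and 1095 and 1111 CPM with olive oil (0.03 ± 0.10). Its groups did not overlap, at a fold change of 1.02. ATP5IF1, which inhibits ATP hydrolysis when the gradient collapses, had 111 and 79.8 CPM with ozonated oil and 108 and 87.4 CPM with olive oil (-0.03 ± 0.20). The smallest unadjusted p among its nuclear genes were those of ATP5MF, ATP5ME and ATP5MJ, small subunits of the membrane part. ATP5MF had 79.8 and 70.0 CPM with ozonated oil and 67.6 and 63.0 CPM with olive oil (0.20 ± 0.12, unadjusted p = 0.16 by edgeR), with no overlap. ATP5ME had 47.6 and 41.9 CPM with ozonated oil and 45.8 and 53.5 CPM with olive oil (-0.15 ± 0.14), and ATP5MJ had 57.5 and 51.9 CPM with ozonated oil and 56.4 and 60.1 CPM with olive oil (-0.09 ± 0.12). ATP5F1C of the central stalk also lay above. The medians were -0.00 for the 5 F1 subunits, 0.01 for the 3 genes of the c ring, -0.01 for the 4 subunits of the peripheral stalk and -0.02 for the 5 membrane subunits.

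The median difference of the nuclear genes had opposite signs within number 1 and within number 2. Within number 1 their median log2 difference was 0.09 and within number 2 it was -0.06. Of the 80, 46 were higher with ozonated oil in number 1 and lower in number 2, where 18.3% of all genes were, 21 were higher in both (all genes, 31.6%), 9 were lower in both (all genes, 31.1%) and 4 went the opposite way. Every nuclear complex had a positive median in number 1 (0.08, 0.03, 0.07, 0.12 and 0.08 for complexes I to V) and a negative one in number 2 (-0.07, -0.07, -0.04, -0.02 and -0.09). The median deviation of the nuclear members from their mean over the libraries was 0.02 and -0.01 with ozonated oil and -0.05 and 0.06 with olive oil, so the olive oil libraries were the lowest and the highest. With 1 library for each oil and number, the difference between the numbers in the effect of the oil could not be tested. With total counts in place of TMM, the median of nuclear members was -0.04 and that of all genes was -0.04 as well, while the mitochondrial coding median was 0.18.

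**Figure D3:**
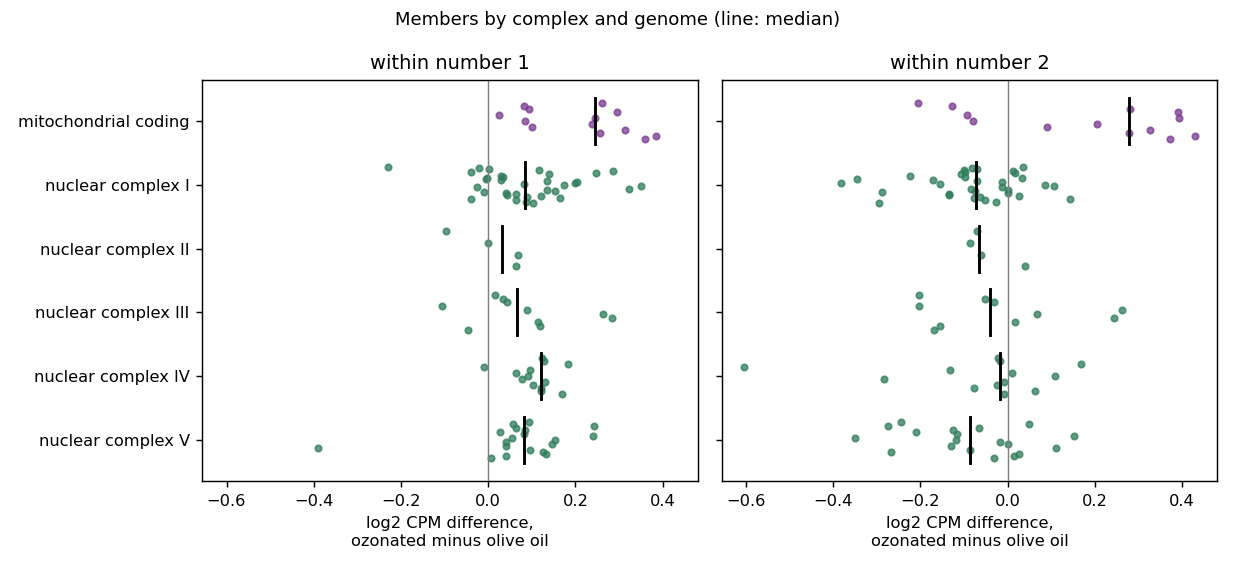
Each point is a member, placed by its log2 CPM difference (ozonated minus olive oil) within number 1 on the left and within number 2 on the right, with a line at the median of each group. The mitochondrial coding genes have medians of 0.25 and 0.28, while the nuclear complexes have medians above 0 in number 1 and below 0 in number 2.

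The numbers differed more than the oils. The oil comparison above had no term for the number, so the counts called there and here come from unlike models. The oil comparison with the number as a block is given under the dependence on processing. In a fit with oil as a term, edgeR's quasi-likelihood test called 3629 of 14841 genes between number 2 and number 1 (24.5%), 1654 higher in number 2 (11.1%) and 1975 lower (13.3%). Of the members, 13 of 93 were called, 8 of 13 mitochondrial and 5 of 80 nuclear. Among mitochondrial genes, ND2 was higher in number 2 (log2 difference 0.33 ± 0.05, adjusted p = 0.00021 by edgeR), whereas COX1, COX2, CYTB, ND4, ND4L, ND5 and ND6 were lower. COX2 had the largest of these differences, -0.47 ± 0.05 (adjusted p = 6.6e-06 by edgeR), with -0.46 in ozonated oil and -0.48 in olive oil. COX2 and ND2 thus had nearly equal log2 fold changes between the oils and opposite signs between the numbers.

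Of the nuclear members, SDHD, ATP5MC2 and NDUFA13 were higher in number 2, and ATP5IF1 and NDUFB8 were lower. SDHD had 98.4 CPM (ozonated oil) and 103 CPM (olive oil) in number 2, against 75.6 and 80.9 CPM in number 1 (0.37 ± 0.08, adjusted p = 0.0043 by edgeR). ATP5MC2, which encodes the c ring that turns as protons pass, had 194 and 197 CPM in number 2, against 157 and 153 CPM in number 1 (0.34 ± 0.08). NDUFA13, a complex I accessory subunit also known as GRIM-19, had 160.1 and 169 CPM in number 2, against 147 and 131 CPM in number 1 (0.24 ± 0.08). ATP5IF1 had 79.8 and 87.4 CPM in number 2, against 111 and 108 CPM in number 1 (-0.39 ± 0.09), and NDUFB8 had 109 and 109.6 CPM in number 2, against 145 and 126 CPM in number 1 (-0.31 ± 0.08). For each of these genes both libraries of one number lay on the same side of both libraries of the other. DESeq2 called 7 of the 93 members between the numbers (all genes, 11.4%), and without the oil term edgeR called 0 (all genes, 6.39%).

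**Figure D4:**
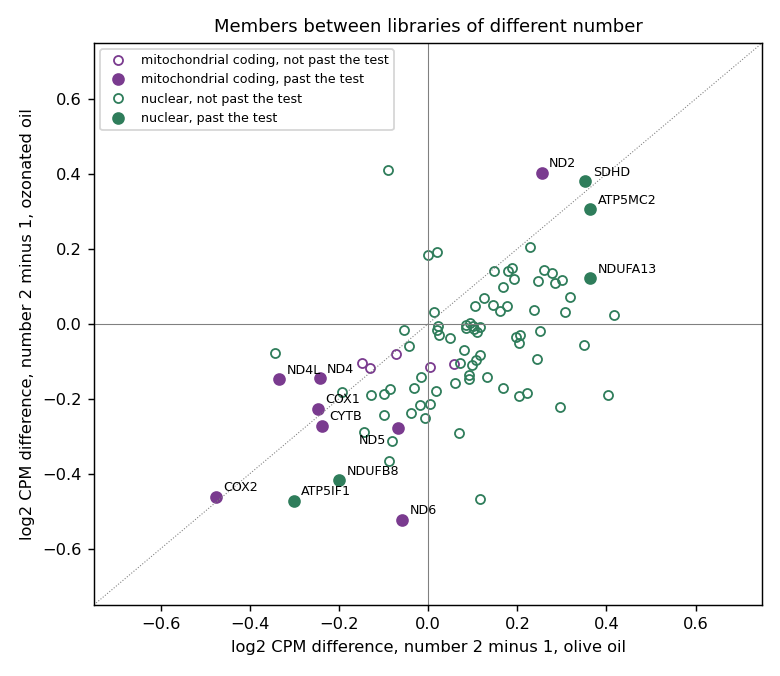
Each point is a member, with its log2 CPM difference between number 2 and number 1 in ozonated oil on the vertical axis and in olive oil on the horizontal axis. Filled points are the 13 members that passed the test, of which ND2, SDHD, ATP5MC2 and NDUFA13 lie above 0 and the other 9 below 0 in both oils.

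Per kilobase of the longest GENCODE transcript, 12 of the 13 mitochondrial coding genes had a mean level above that of every nuclear member that had a length, though ND5 lay below UQCRH in both libraries of number 2. Mean levels of the 13 ran from 580.2 CPM per kb (ND6) to 3385 CPM per kb (ATP6), with a median of 1821. The 78 nuclear members with a length ran from 4.99 to 638 CPM per kb, with a median of 72.0, and UQCRH at 638 and ATP5F1B at 606 CPM per kb were the highest. The longest transcript is not always the one expressed, so low nuclear levels of genes with a long transcript, such as NDUFS1 at 8.37 CPM per kb, are uncertain.

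The 9 rows under the minimum are accounted for here. COX4I2, COX6A2, COX8C, NDUFA6 and the readthrough row ATP5MF-PTCD1 were listed at 0. NDUFA3 had 4 counts in all, ATP5MGL 9, COX7A1 21 and COX6B2 25. The lowest members that passed were ATP5F1EP2, a copy of the ATP synthase epsilon gene, with 59 counts in all, and UQCRBP1 with 175. NDUFA3 and NDUFA6 encode accessory subunits of complex I, and a row at or near 0 is not taken here to show absence of the message. Why these rows were at or near 0 was not tested.

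Genes around the chain were taken from lists by function, and 0 genes of each list were called between the oils by edgeR (all genes, 0%). The list for expression of the mitochondrial genome holds its RNA polymerase, transcription factors, RNA processing enzymes and genes that copy its DNA. It had a median log2 fold change of -0.14 over 28 tested genes. Of these, 22 were lower within both numbers (all genes, 31.1%) and 1 was higher (all genes, 31.6%), and the ozonated libraries were both below for 15 (all genes, 15.7%) and both above for 0 (all genes, 15.3%). FASTKD3, a mitochondrial RNA-binding protein, had 24.5 and 19.5 CPM with ozonated oil and 34.3 and 32.0 CPM with olive oil (-0.59 ± 0.18, unadjusted p = 0.021 by edgeR). TRMT10C, a subunit of the enzyme that cuts tRNAs from the precursor, had 94.1 and 82.7 CPM with ozonated oil and 109.8 and 109.2 CPM with olive oil (-0.31 ± 0.12, unadjusted p = 0.046 by edgeR). The packaging and transcription factor TFAM had 114 and 133 CPM with ozonated oil and 125 and 149 CPM with olive oil (-0.15 ± 0.15), with overlap. The RNA polymerase POLRMT overlapped too, with 89.1 and 86.5 CPM with ozonated oil and 86.8 and 90.9 CPM with olive oil (-0.02 ± 0.10). The median of this list lay below 0, as did both rRNAs, while the median of the mitochondrial coding genes lay above 0 and ND3 and ND5 slightly below it.

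Regulators linked to HIF, which drives the response to low oxygen, had the highest of the list medians, 0.65 over 9 tested genes. Of these, 8 were higher within both numbers (all genes, 31.6%) and 5 had both ozonated libraries above (all genes, 15.3%). This list was chosen with higher HIF targets in these data already known, so its direction is not independent evidence. PDK1, whose product limits entry of pyruvate into the citrate cycle, had 52.5 and 55.8 CPM with ozonated oil and 26.9 and 20.2 CPM with olive oil (1.20 ± 0.18, unadjusted p = 0.0012 by edgeR). MXI1, a MYC antagonist, had 38.6 and 40.2 CPM with ozonated oil and 23.7 and 26.4 CPM with olive oil (0.65 ± 0.14). The groups were well apart for both. NDUFA4L2, the hypoxia-linked relative of NDUFA4, had 1.19 and 3.28 CPM with ozonated oil and 0.89 and 1.78 CPM with olive oil (0.74 ± 0.66), and it differed more between the numbers. The protease LONP1, which removes COX4I1 in hypoxia, had 319 and 297 CPM with ozonated oil and 261 and 288 CPM with olive oil (0.17 ± 0.11).

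The regulators of mitochondrial biogenesis had a median of -0.02 over 10 genes. MYC, which drives growth and mitochondrial biogenesis, had 19.0 and 12.4 CPM with ozonated oil and 30.2 and 32.4 CPM with olive oil (-0.997 ± 0.25, unadjusted p = 0.010 by edgeR). The coactivator PPARGC1B had 13.4 and 15.7 CPM with ozonated oil and 26.6 and 20.1 CPM with olive oil (-0.68 ± 0.22, unadjusted p = 0.026 by edgeR). Both ozonated libraries lay below for each. Its relative PPARGC1A had 2.04 and 0.19 CPM with ozonated oil and 1.81 and 0.45 CPM with olive oil (-0.01 ± 1.18), so it split by number.

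Assembly factors and fuel enzymes lay near 0. Median log2 fold changes were -0.07 for assembly factors of complex I (17 genes), -0.08 for complex II (4), -0.11 for complex III (6), -0.05 for complex IV (23) and -0.01 for ATP synthase (5). Among those, TACO1, a translational activator of COX1, had 33.3 and 34.2 CPM with ozonated oil and 41.1 and 46.0 CPM with olive oil (-0.37 ± 0.13, unadjusted p = 0.037 by edgeR). The copper chaperone SCO2 had 0.60 and 0.42 CPM with ozonated oil and 0.85 and 1.15 CPM with olive oil (-0.97 ± 0.51). That value rests on few reads, 14 and 9 counts with ozonated oil and 24 and 31 counts with olive oil. NDUFAF1 (-0.20 ± 0.13) and NDUFAF6 (-0.17 ± 0.15) of complex I, UQCC3 (-0.24 ± 0.17) of complex III and TMEM70 (-0.21 ± 0.15) of ATP synthase also had both ozonated libraries below. In all, the ozonated libraries were both below for 3 of the 17 complex I factors, 2 of the 6 complex III factors, 6 of the 23 complex IV factors and 1 of the 5 ATP synthase factors (all genes, 15.7%), and both above for 4 complex IV factors (all genes, 15.3%): COX10, COX19, PET100 and COA8, with log2 fold changes from 0.04 to 0.20. SDHAF1 (-0.06 ± 0.17), SDHAF2 (-0.09 ± 0.13), UQCC1 (-0.13 ± 0.14) and ATPAF1 (-0.08 ± 0.11) overlapped. The 19 electron carriers and other entry points had a median of -0.04. Of these, cytochrome c (CYCS) had 259.5 and 256 CPM with ozonated oil and 270.2 and 277 CPM with olive oil (-0.09 ± 0.10), and cytochrome c1 (CYC1) had 198 and 215 CPM with ozonated oil and 189 and 211 CPM with olive oil (0.05 ± 0.12). In coenzyme Q synthesis, COQ8A had 0.16 ± 0.11 and PDSS1 -0.17 ± 0.14. The 14 citrate cycle enzymes had a median of -0.03, with IDH3A at -0.11 ± 0.10.

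**Figure D5:**
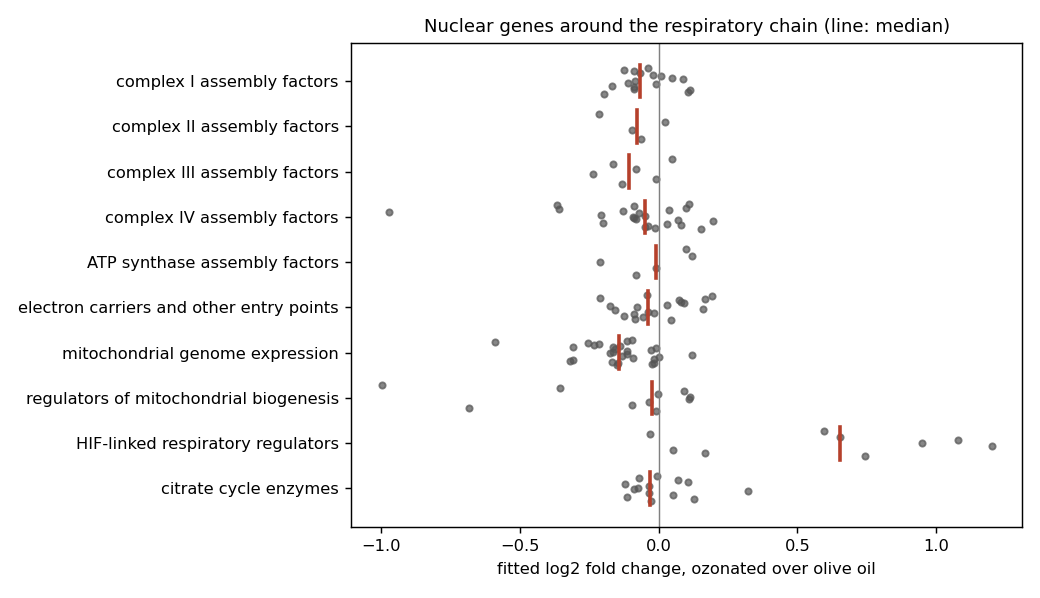
Each point is a gene of a list around the respiratory chain, placed by its fitted log2 fold change (ozonated over olive oil), with a line at the median of its list. The list for mitochondrial genome expression has a median of -0.14 and the HIF-linked list one of 0.65, and the other medians lie between -0.11 and -0.01.

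Promoters of the nuclear members were compared with those of all genes tested for what they share beyond the name. RefSeq windows (GRCh38.p14) were found for 64 of the 80, and the 250 bases before the start were searched on both strands in 77 windows, against 16704 windows of genes tested. The motif GCGCANGCG of NRF1, a known activator of respiratory genes, was in 24.7% of member windows and 10.4% of all windows. The motif CCGGAAG of GABP (NRF2 in older papers on mitochondria, unrelated to the oxidant-response factor) was in 24.7% and 13.1%. The YY1 motif AAGATGGCG was in 2.6% and 1.03%, and the ERR motif TCAAGGTCA in 0% and 0.168%. The 2 member windows with the YY1 motif overlap and belong to 1 gene, ATP5PF. For comparison, the SP1 motif GGGCGG was in 59.7% and 61.2%, and the HIF motif ACGTG in 20.8% and 21.9%. At least 1 of the 4 motifs of NRF1, GABP, YY1 and ERR was present in 33 of the 64 members, and 31 had none. A match is a run of letters and not a measured site.

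The windows of NDUFB4, of SDHD and of ATP5PF, a stalk subunit that held 3 kinds of motif, are shown to make these motifs visible. Each was picked in its complex for the most kinds of motif, then the most matches, and not for its expression. Capitals mark matches to NRF1, GABP and YY1 motifs on either strand, and adjoining matches run together. ATP5PF itself had 86.8 and 95.7 CPM with ozonated oil and 83.5 and 92.5 CPM with olive oil (0.05 ± 0.12).
NDUFB4, chr3:120596086-120596335, plus strand: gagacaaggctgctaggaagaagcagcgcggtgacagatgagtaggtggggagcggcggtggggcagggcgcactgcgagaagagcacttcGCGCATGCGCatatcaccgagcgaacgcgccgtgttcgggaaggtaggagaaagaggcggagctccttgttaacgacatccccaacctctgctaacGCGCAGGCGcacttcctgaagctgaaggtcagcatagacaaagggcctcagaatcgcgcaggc
SDHD, chr11:112086623-112086872, plus strand: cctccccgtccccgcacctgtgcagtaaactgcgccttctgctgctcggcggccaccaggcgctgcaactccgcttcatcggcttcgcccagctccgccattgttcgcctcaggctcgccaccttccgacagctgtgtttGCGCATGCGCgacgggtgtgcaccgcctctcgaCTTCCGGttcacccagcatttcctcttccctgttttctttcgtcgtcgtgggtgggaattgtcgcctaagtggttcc
ATP5PF, chr21:25735055-25735304, minus strand: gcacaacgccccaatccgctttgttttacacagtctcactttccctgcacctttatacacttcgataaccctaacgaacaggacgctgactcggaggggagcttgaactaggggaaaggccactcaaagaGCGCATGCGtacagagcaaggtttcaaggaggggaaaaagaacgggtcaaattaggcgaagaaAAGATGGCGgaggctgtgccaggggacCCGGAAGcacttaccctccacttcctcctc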

How the data were processed

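Messenger RNA was measured in 4 libraries of A375 cells, 2 for each oil, made with a directional kit per the labels' protocols. The values of the deposited table are raw counts per gene, 1 column per library. Tools listed in the submitters' processing notes, without role or order, were edgeR, bedtools 2.27.1, SAMtools 1.9, StringTie 1.3.4d, HISAT2 2.1.0, FastQC 0.11.7 and bcl2fastq, with build hg38. Which tool counted the reads, on which strand and with which annotation is not given in the sources used here.

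The analysis used edgeR 4.0.16 in R 4.3.3: filterByExpr with the oil (14841 genes kept, all 93 members among them), TMM factors (0.972 to 1.017) and the quasi-likelihood test, two-sided, with p adjusted by Benjamini-Hochberg over all genes, threshold 0.05, and no block. CPM use the TMM-scaled totals. Standard errors come from the fold change and its F statistic. Within-number differences are of log2 CPM with a prior count of 2. The test was run on simulated data first. No pair of libraries matched within sampling noise (chi-square/df 22.6 to 65.6). The members and lists were chosen with earlier results of these data known.

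Named are all mitochondrial coding genes, in each complex the 3 nuclear members of smallest p and the 1 of highest CPM, set members and regulators whatever their values, and the 2 genes of smallest p in each list. NDUFC2, NDUFB8, ATP5MC2, NDUFA13, ATP5PF, POLRMT, mitochondrial rRNAs and tRNAs, and genes named for non-overlapping groups, were chosen after their values were seen. A few genes that this rule names are not reported here. NDUFA4 was placed in complex IV by hand. Coordinates are RefSeq's on GRCh38.p14. Lengths and mitochondrial sequences are from GENCODE release 29. Copies were searched with blastn 2.17.0. Alternatives were other scalings and filters, DESeq2 1.42.0, limma-voom (limma 3.58.1), the number as a block, and each library left out.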

Additional observations from a re-analysis of the deposited data

How the results depend on the processing

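Between the oils, 0 of 93 members were called under every other scaling and filter run, by DESeq2 and by limma-voom. DESeq2 called 59 genes of the whole table, against 0. Leaving out 1 library gave 0 to 4 genes (4 without ozonated number 1, 1 without olive oil number 1) and 0 members. The lone library of a group is then taken to vary as the libraries of the other group do. The median of the mitochondrial coding genes ran from 0.08 to 0.35 and the difference in the share of counts from 0.14 to 0.39 percentage points, against 0.26 with all libraries. The median of the nuclear genes ran from -0.058 to 0.054.

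The labels do not pair the libraries by number. Deviations from the oil means correlated with r = 0.67 between libraries of the same number, a hint from the data and not from the design. With the number as a replicate block, edgeR called 841 genes (468 higher, 373 lower, 5.67%) and 7 of 93 members, ND2, COX1, COX2, ATP8, ATP6, ND4 and CYTB, all higher with ozonated oil, and 0 of 80 nuclear genes. The medians with the block were 0.22 (mitochondrial) and 0.01 (nuclear).

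Between the numbers, DESeq2 called 1698 genes and 7 members, and the fit without the oil term 948 genes and 0 members, against 3629 and 13. Libraries could not be left out there, since no residual degrees of freedom remain. Of 444 values of 37 named members under the alternatives, 7 passed the threshold, 3 moved beyond the spread and 434 did neither. The sign turned in 30, 22 of them with a library left out, and in 0 where the fitted value was 0.1 or more. With 2 libraries per oil, an adjusted p above the threshold does not show that a member was at the same level in both oils.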

Other observations

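The transfer RNAs of the mitochondrial genome, which punctuate the coding genes, were present at low counts, and 13 of 22 rows could be tested. Their median log2 fold change was -0.34 (ozonated over olive oil), with both ozonated libraries below both olive oil libraries for 5 (all genes, 15.7%) and above for 0 (all genes, 15.3%). TRNP had the highest level, with 286 and 114 counts with ozonated oil and 391 and 200 counts with olive oil, and it split by number. TRNC had 59 and 26 counts with ozonated oil and 99 and 82 counts with olive oil. Mature tRNAs are short and modified, and how far this library preparation holds them is not in the labels.

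Around the rows of NDUFA3 and NDUFA6 in the table, 6 of the 10 nearest rows were also under the minimum of 40 counts in each case. The highest of those neighbours had 709 counts near NDUFA3 and 1487 counts near NDUFA6. Low rows were common in the whole table, where 14841 of 28395 rows passed the filter of the tests, which is another threshold.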
